A study of Rattus norvegicus with 16 samples.

Results

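Oxytocin and vasopressin are the peptide hormones of the posterior pituitary, and their precursors are encoded by Oxt and Avp. These 2 genes, of 32883 gene IDs in the count files, were followed through the rat hypothalamus. They were taken as the rows ENSRNOG00000021225 (Oxt) and ENSRNOG00000021229 (Avp), with the symbols of the list that defined the pair. No annotation used here pairs Ensembl IDs with symbols, so these names could not be checked, and no annotation named either ID otherwise. Both genes were among the 15366 that passed the filter on low counts.

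The study sequenced RNA from the hypothalamus (MBH-PoA in the labels) of 21-day-old female Wistar rats, 16 libraries in all. Endocrine disrupting chemicals (EDC) as a mixture, or vehicle for controls, were given in the food of the maternal lineage before gestation, during it and through lactation. The groups were F3 EDC and F3 control, rats of the third generation whose exposure to the mixture or to vehicle was ancestral, and F1 EDC and F1 control, exposed in utero to the mixture or to vehicle. Each group had 4 libraries. Sample titles call the EDC animals Control too, so groups followed the source descriptions, which name the exposure. No label says whether any of the rats were littermates, so p-values measure the spread between these samples only. F3 and F1 files also carry different lane numbers, so a difference between generations and one between sequencing runs cannot be told apart.

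The precursor made from each gene is cut into a hormone and its carrier protein, a neurophysin. Large neurons of the paraventricular and supraoptic nuclei make either hormone and release it from their endings in the pituitary, and vasopressin is also made in the suprachiasmatic nucleus. Oxytocin drives milk ejection and takes part in labour and maternal behaviour. Vasopressin makes the kidney retain water, raises blood pressure and takes part in social behaviour. The genes are paralogs that face each other tail to tail on 1 chromosome, with 0 other genes listed between them in the RefSeq table. Part of their coding sequence is nearly identical, so reads from that part may map to both genes. The count files hold such reads as multimapping and not under a gene, so each count covers the uniquely placed part of a gene's reads.

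The promoters of both genes are shown as a description, and no link between them and the levels of the genes was tested. Each sequence is from RefSeq (build GRCr8), runs from 250 bases before to 50 bases after the annotated start, and is written along the gene. The Oxt window is chr3:138235504-138235803 on the plus strand, and the Avp window is chr3:138248473-138248772 on the minus strand. Capitals mark AGGTCA, a core motif of nuclear receptors, in Oxt and TGACG, a core motif of the cAMP response element, in Avp, each on either strand.
Oxt: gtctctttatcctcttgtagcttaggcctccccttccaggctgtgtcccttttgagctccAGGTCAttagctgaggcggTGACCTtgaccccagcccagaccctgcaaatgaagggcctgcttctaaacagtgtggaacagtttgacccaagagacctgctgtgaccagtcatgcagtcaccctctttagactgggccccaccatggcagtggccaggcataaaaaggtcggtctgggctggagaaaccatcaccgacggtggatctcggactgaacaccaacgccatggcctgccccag
Avp: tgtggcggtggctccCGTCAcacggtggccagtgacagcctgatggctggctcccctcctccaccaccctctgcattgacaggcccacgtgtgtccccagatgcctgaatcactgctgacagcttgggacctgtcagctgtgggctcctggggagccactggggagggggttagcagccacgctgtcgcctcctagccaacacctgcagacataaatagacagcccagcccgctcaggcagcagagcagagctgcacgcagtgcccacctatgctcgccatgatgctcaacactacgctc
The Oxt window held AGGTCA 2 times, and the Avp window 0 times. Of 33469 rat promoters of this length, 16.2% held this motif at least once and 1.81% held it 2 or more times. In Oxt the matches lay at -190 to -185 on the plus strand and at -171 to -166 on the opposite strand, counted from the start of transcription. The palindromic oestrogen response element (GGTCA, any 3 bases, TGACC) was in neither window and in 0.0269% of all. TGACG was found 1 time in Avp, at -235 to -231 on the opposite strand, 0 times in Oxt and in 21.2% of all promoters. The E-box CANNTG, not capitalised, was found 1 time in Oxt and 4 times in Avp, and in 72.1% of promoters. TATAAA was in neither window and in 14.2% of all. None of the capitalised matches overlapped another motif. These are matches of letters and not measured sites.

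Gene counts per library ran from 5655354 to 35981898. Oxt was counted in all 16 libraries, with 33 to 847 reads, and Avp with 97 to 1045 reads. The strand opposite to the genes held 0 reads for Oxt and 1 read for Avp over all libraries. Levels below are CPM, the reads of a gene scaled to a common library total, after TMM scaling. Symbols were not at hand for the other genes, so receptors, processing enzymes and markers of hypothalamic nuclei are not analysed here. Detection of Oxt and Avp is then the only marker evidence on the tissue. In dissected tissue, a smaller share of the nuclei that make these hormones, fewer neurons of a type and less RNA per neuron cannot be told apart.

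Oxt was highest in F3 control and lowest in F1 EDC. In F3 EDC it was at 22.6, 19.1, 13.8 and 9.10 CPM in replicates 1 to 4. In F3 control it was at 18.2, 23.2, 23.9 and 78.6 CPM. One F3 control library, replicate 4, stood far above the other 15 libraries of the study. In F1 EDC, Oxt was at 4.87, 9.57, 3.04 and 5.40 CPM. In F1 control it was at 6.04, 18.2, 9.10 and 7.85 CPM. Both F1 groups had lower means than the F3 groups, but they overlapped each other and F3 EDC. F1 control replicate 2, at 18.2 CPM, lay above F3 EDC replicates 3 and 4. The lowest library, F1 EDC replicate 3, rested on 33 reads, with an exact Poisson interval of 2.096 to 4.28 CPM (95%, counting error only). The highest, F3 control replicate 4, had 847 reads and an interval of 73.4 to 84.0 CPM.

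Avp also varied widely between rats of a group. In F3 EDC it was at 26.7, 41.0, 30.6 and 10.5 CPM in replicates 1 to 4. In F3 control it was at 30.7, 44.7, 33.6 and 96.9 CPM. Replicate 4 was again the highest library of F3 control, and replicate 4 of F3 EDC was the lowest of its group for both genes. In F1 EDC, Avp was at 29.9, 22.7, 23.9 and 22.4 CPM. In F1 control it was at 12.6, 33.1, 33.7 and 36.9 CPM. F1 EDC replicates 2 to 4 lay within a narrow range, and F1 control replicate 1 lay well below the rest of its group.

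**Figure D1:**
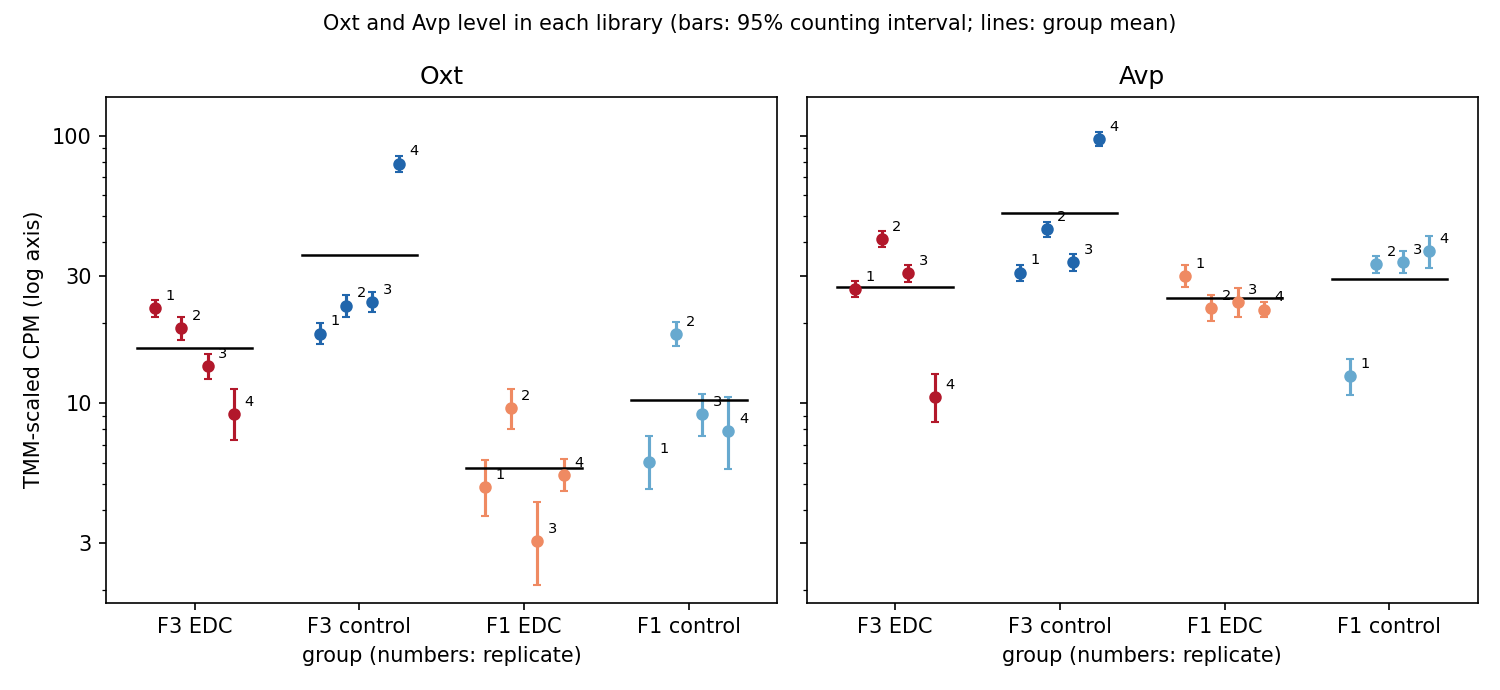
CPM of Oxt (left) and Avp (right) on a log axis in each of the 16 libraries, by group. Points are libraries with their replicate number, bars are exact 95% Poisson counting intervals, and lines are group means. F3 control replicate 4 is the highest library for both genes, at 78.6 CPM for Oxt and 96.9 CPM for Avp.

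This spread between rats was wider than counting error. The coefficient of variation of Oxt CPM within a group was 36.8% in F3 EDC, 79.4% in F3 control, 48.2% in F1 EDC and 52.4% in F1 control. Counting error alone would give 6.84%, 4.24%, 11.9% and 10.7% in the same groups. For Avp it was 46.6% in F3 EDC, 60.0% in F3 control, 14.3% in F1 EDC and 38.2% in F1 control, where counting would give 5.91%, 3.38%, 5.10% and 6.01%. The biological coefficient of variation from edgeR was 50.4% for Oxt and 43.7% for Avp, and its median over the 15366 genes tested was 14.5%. It was lower than that of Oxt in 93.7% of tested genes, and lower than that of Avp in 90.1%.

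Exposure to the mixture was compared with vehicle first in the F1 rats. Neither gene passed the threshold, an adjusted p of 0.05 over all tested genes, whereas 52.4% of tested genes did. The groups overlapped for both genes, as they did for all but 44.0% of tested genes. Oxt averaged 5.72 ± 2.76 CPM in F1 EDC rats and 10.3 ± 5.39 CPM in F1 controls (SD, n = 4 each). The log2 fold change was -0.88 (SE 0.56, 95% interval -2.1025 to 0.34; edgeR quasi-likelihood adjusted p = 0.213). Avp averaged 24.7 ± 3.53 CPM in F1 EDC rats and 29.1 ± 11.1 CPM in F1 controls (SD, n = 4 each). Its log2 fold change was -0.22 (SE 0.46, interval -1.22 to 0.77; edgeR adjusted p = 0.714). The count of members with an unadjusted p under 0.05 was 0 as well in this fit, and DESeq2 and limma voom each called 0. Both intervals include falls of more than 2-fold as well as rises. The fit shares its estimate of the spread over all 4 groups. In a fit of the F1 libraries alone the log2 fold change of Oxt was -0.87 (SE 0.39; edgeR unadjusted p = 0.0464, adjusted 0.0848). Without F3 control replicate 4, a library outside this comparison, it was -0.88 (SE 0.40; edgeR adjusted p = 0.0905). Without F1 control replicate 2 the log2 fold change of Oxt was -0.40 (edgeR adjusted p = 0.613). That of Avp was -0.48 without F1 control replicate 1, the low library (edgeR adjusted p = 0.414), and between -0.14 and -0.11 without F1 control replicate 2, 3 or 4. Multimapping reads took 41.8% to 51.6% of reads in F1 EDC and 19.9% to 43.2% in F1 control. With that share as a covariate the log2 fold change was -0.39 for Oxt (edgeR adjusted p = 0.622) and -0.025 for Avp (edgeR adjusted p = 0.974).

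In the F3 rats the question was whether ancestral exposure left a difference in either gene. Both averages were lower in F3 EDC, and neither gene passed the threshold, which 2.94% of tested genes did. Oxt averaged 16.1 ± 5.94 CPM in F3 EDC and 35.9 ± 28.5 CPM in F3 control (SD, n = 4 each), a log2 fold change of -1.11 (SE 0.51, interval -2.22 to 0.00081; quasi-likelihood adjusted p = 0.302 in edgeR). Avp averaged 27.2 ± 12.7 CPM in F3 EDC and 51.5 ± 30.9 CPM in F3 control (SD, n = 4 each), a log2 fold change of -0.88 (SE 0.44, interval -1.84 to 0.09; adjusted p = 0.352 in edgeR). Of the 2 genes, 0 had an unadjusted p under 0.05 in edgeR (Oxt at 0.0501), and DESeq2 and limma voom each called 0. In DESeq2 the unadjusted p was 0.0287 for Oxt (adjusted 0.167) and 0.0449 for Avp (adjusted 0.217). Limma voom gave smaller log2 fold changes, -0.50 for Oxt (adjusted p = 0.380) and -0.55 for Avp (adjusted p = 0.365). The groups overlapped for both genes, and they did not for 12.2% of tested genes.

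The size of both F3 differences followed the libraries numbered 4, and F3 control replicate 4 most. Without F3 EDC replicate 4 alone, the log2 fold change was -0.93 for Oxt (edgeR adjusted p = 0.466) and -0.64 for Avp (edgeR adjusted p = 0.525). Without F3 control replicate 4, the log2 fold change was -0.41 for Oxt (edgeR adjusted p = 0.647) and -0.39 for Avp (edgeR adjusted p = 0.663). Without both F3 EDC replicate 4 and F3 control replicate 4, a fit chosen after their values were seen, it was -0.23 for Oxt (edgeR adjusted p = 0.820) and -0.15 for Avp (edgeR adjusted p = 0.859). Multimapping reads took 44.4% of reads in F3 EDC replicate 4 and 15.7% to 23.1% in the other F3 EDC libraries. In F3 control they took 30.1% in replicate 4 and 16.5% to 43.3% in the others. With this share as a covariate the log2 fold change was -1.39 for Oxt (edgeR adjusted p = 0.203) and -1.03 for Avp (edgeR adjusted p = 0.341), larger than without it.

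The effects of exposure in the 2 generations were compared by an interaction contrast, which 43.6% of tested genes passed. For Oxt, the F3 effect minus the F1 effect was -0.23 on the log2 scale (SE 0.76, interval -1.88 to 1.42; edgeR adjusted p = 0.838). For Avp it was -0.65 (SE 0.64, interval -2.04 to 0.73; edgeR adjusted p = 0.449). The unadjusted p was under 0.05 for 0 of the 2 genes, and DESeq2 and limma voom each called 0. The Oxt difference was 0.46 without F3 control replicate 4, 0.12 without F1 EDC replicate 2 and 0.37 with limma voom, so its sign was not settled. With the multimapping covariate it was -1.0006 for Oxt (edgeR adjusted p = 0.386) and -1.004 for Avp (edgeR adjusted p = 0.341). Without F3 control replicate 4 the Avp difference was -0.17 (edgeR adjusted p = 0.841).

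Between generations, the mean of Oxt was higher in the F3 than in the F1 rats, in control and in EDC animals, though neither call held in every fit. In F3 control against F1 control the log2 fold change was 1.74 (SE 0.54, interval 0.58 to 2.90; edgeR adjusted p = 0.0285), with group means of 35.9 and 10.3 CPM. Of tested genes, 27.5% passed in this comparison, 14.6% of all tested genes being higher in F3 control. A smaller edgeR p than that of Oxt was found in 23.8% of tested genes. The lowest F3 control library (18.17 CPM) and the highest F1 control library (18.15 CPM) were nearly level, so the groups were apart by less than counting error. In 25.2% of tested genes these groups did not overlap. Without F3 control replicate 4 the log2 fold change was 1.05 (edgeR adjusted p = 0.0822), and without F1 control replicates 1, 3 or 4 in turn it was 1.54, 1.67 and 1.65 (edgeR adjusted p = 0.0810, 0.0688 and 0.0661). Limma voom gave 1.37 (adjusted p = 0.109) and DESeq2 1.81 (adjusted p = 0.00325).

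In F3 EDC against F1 EDC, Oxt was higher by 1.51 on the log2 scale (SE 0.55, interval 0.32 to 2.70; edgeR adjusted p = 0.0339), with group means of 16.1 and 5.72 CPM. Here 53.5% of tested genes passed, and 27.0% of all tested genes were higher in F3 EDC. A smaller edgeR p than that of Oxt was found in 50.7% of tested genes. The groups overlapped by 1 library on each side, F3 EDC replicate 4 at 9.10 CPM and F1 EDC replicate 2 at 9.57 CPM, and did not overlap for 51.5% of tested genes. Leaving out F3 EDC replicate 1 or 2 gave 1.30 and 1.43 (edgeR adjusted p = 0.0889 and 0.0686). Leaving out F1 EDC replicate 1, 3 or 4 gave 1.48, 1.37 and 1.51 (edgeR adjusted p = 0.0733, 0.0800 and 0.0714). With the multimapping share as a covariate the log2 fold change was 0.68 (SE 0.69; edgeR adjusted p = 0.468). This share was 15.7% to 44.4% in F3 EDC and 41.8% to 51.6% in F1 EDC.

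Avp passed in neither comparison of generations. Its log2 fold change was 0.82 (SE 0.45, interval -0.17 to 1.81; edgeR adjusted p = 0.212) in F3 control against F1 control, with means of 51.5 and 29.1 CPM. In F3 EDC against F1 EDC it was 0.17 (SE 0.45, interval -0.81 to 1.15; edgeR adjusted p = 0.781), with means of 27.2 and 24.7 CPM. Without F3 control replicate 4 the control value was 0.34. Which neighbours differ in the order of the group means can be read from the same fit. For Oxt the order was F3 control, F3 EDC, F1 control and F1 EDC, and no step between neighbours passed the threshold. The middle step, F3 EDC against F1 control, differed by 0.63 on the log2 scale (SE 0.53; edgeR adjusted p = 0.482), where 16.2% of tested genes passed. For Avp the order was F3 control, F1 control, F3 EDC and F1 EDC, and no step passed either. F3 EDC against F1 control was at -0.06 for Avp (SE 0.45; edgeR adjusted p = 0.952).

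**Figure D2:**
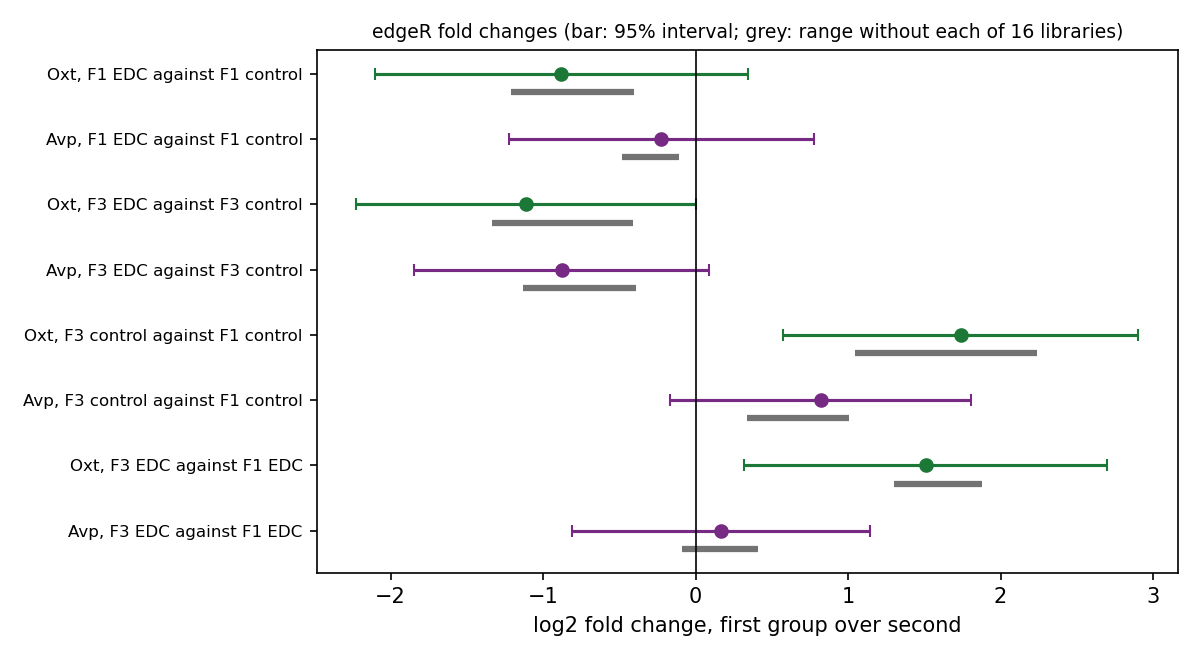
log2 fold change (first group over second) of Oxt and Avp in 4 comparisons of the edgeR fit, with 95% intervals as thin bars and the range over fits without each of the 16 libraries as grey bars. The Oxt intervals of both generation comparisons lie above 0, from 0.58 to 2.90 in controls and from 0.32 to 2.70 in EDC rats, and the intervals of both EDC comparisons include 0 for each gene.

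The ratio of Oxt to Avp counts in a library does not depend on scaling, and it was compared between libraries only. In replicates 1 to 4 it was 0.848, 0.465, 0.450 and 0.866 in F3 EDC. It was 0.591, 0.518, 0.711 and 0.811 in F3 control. F3 EDC replicate 4 and F3 control replicate 4, the lowest and highest F3 libraries for both genes, thus differed little in their ratio. The ratio was 0.163, 0.422, 0.127 and 0.241 in F1 EDC. It was 0.479, 0.549, 0.270 and 0.213 in F1 control. The F1 EDC values lay below all 8 F3 values, and the F1 control values overlapped those of F3.

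On the log2 scale the ratio averaged -2.22 ± 0.75 in F1 EDC rats and -1.51 ± 0.65 in F1 controls (SD, n = 4 each). Their difference of -0.71 did not pass (exact permutation test, two-sided p = 0.200, or 0.400 when adjusted over 2 tests). It averaged -0.68 ± 0.52 in F3 EDC and -0.63 ± 0.29 in F3 control (SD, n = 4 each), a difference of -0.05 (two-sided exact permutation p = 0.857, adjusted 0.857). The comparisons of generations were chosen after the ratios were seen. The difference was 1.55 in F3 EDC against F1 EDC (two-sided exact permutation p = 0.0286, the smallest that 4 against 4 can give, or 0.114 when adjusted over 4 tests), and all 4 F3 EDC values were higher. In F3 control against F1 control it was 0.89 (two-sided exact permutation p = 0.0571, adjusted 0.114). Neither passed after adjustment. The test of F3 EDC against F1 EDC was already at its smallest possible p, so no wider separation of these groups could have passed.

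**Figure D3:**
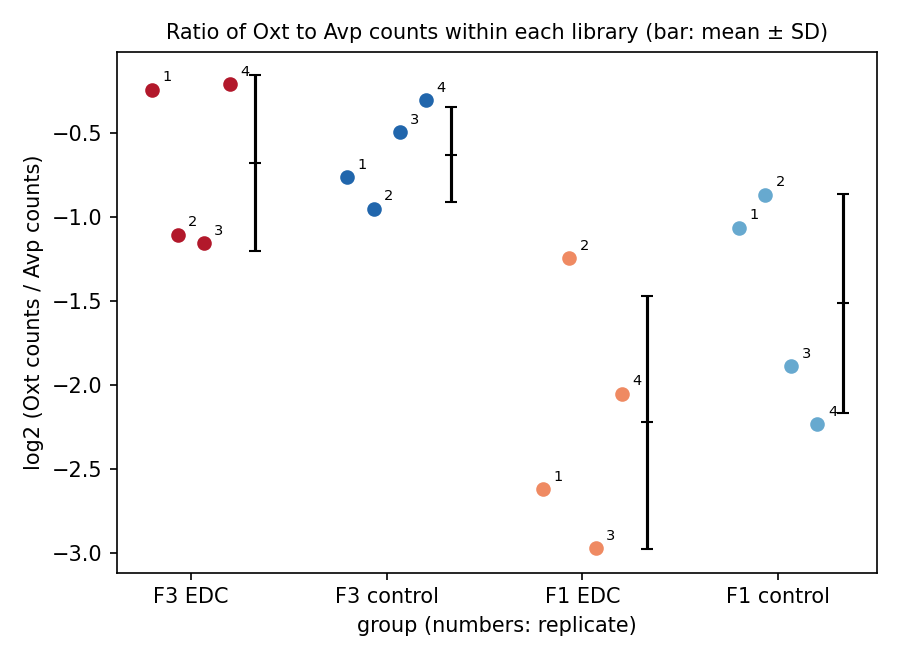
log2 ratio of Oxt to Avp counts in each of the 16 libraries by group, with the group mean and SD as a black bar. Means are -0.68 in F3 EDC, -0.63 in F3 control, -2.22 in F1 EDC and -1.51 in F1 control rats. The F1 EDC points lie below all 8 F3 points, by a small gap (-1.24 in F1 EDC replicate 2, -1.15 in F3 EDC replicate 3).

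Within groups, rats with more Oxt tended to have more Avp. The deviations of log2 CPM from the group mean had a Pearson r of 0.67 (permutation p = 0.0138, adjusted 0.0344 over 5 sets of libraries) and a Spearman rho of 0.59 (permutation p = 0.0293, adjusted 0.0661) over 16 libraries. Values were permuted within groups. Without F3 control replicate 4 and F1 control replicate 2, the libraries farthest from the median of Oxt, r was 0.54 (permutation p = 0.0549) and rho 0.49 (permutation p = 0.0947), so the relation rests in part on those libraries. Among the 8 F3 libraries r was 0.86 (permutation p = 0.0278, adjusted 0.0464) and rho 0.90 (permutation p = 0.0396, adjusted 0.0661). F3 control replicate 4 (Oxt 1.39, Avp 1.07) and F3 EDC replicate 4 (Oxt -0.74, Avp -1.21) lay at the ends of this relation. The F3 libraries without both were not tested, so how far the F3 value rests on them is not known. Among the 8 F1 libraries r was 0.34 (permutation p = 0.467) and rho 0.10 (permutation p = 0.856). Without F1 EDC, the 5th set, r was 0.78 (permutation p = 0.00853, adjusted 0.0344) and rho 0.80 (permutation p = 0.0147, adjusted 0.0661). The sets by generation and the set without F1 EDC were not in the plan of tests. The sets share libraries, and the adjusted p-values of r under 0.05 depend on counting the set without F1 EDC. Whether the relation differs between generations was not tested.

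**Figure D4:**
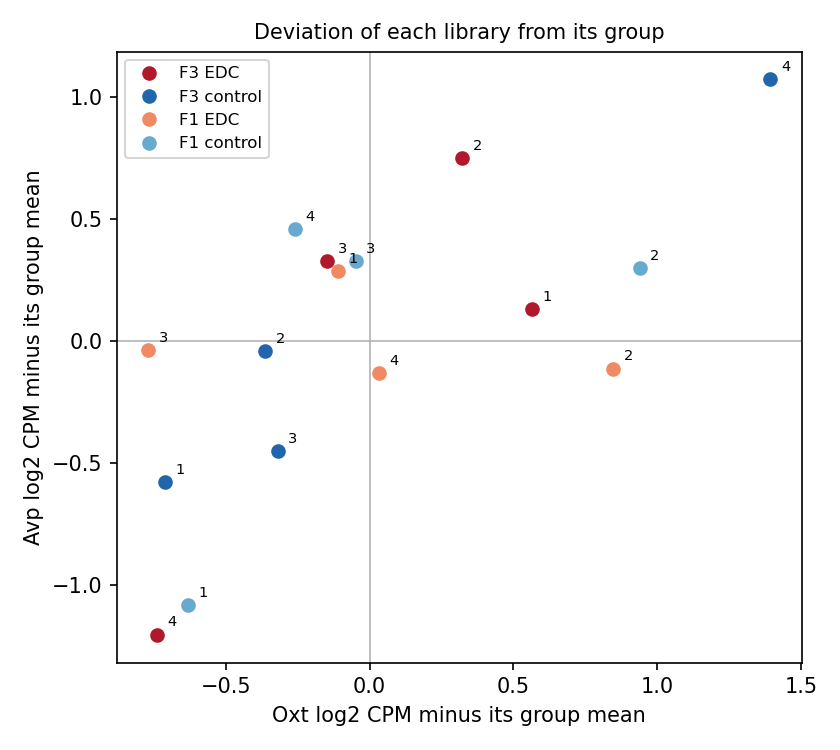
Deviation of log2 CPM from the group mean for Oxt (horizontal) and Avp (vertical) in each of the 16 libraries, coloured by group and numbered by replicate. F3 control replicate 4 lies at 1.39 and 1.07, and F3 EDC replicate 4 at -0.74 and -1.21, the ends of the F3 relation.

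Within groups, some other genes correlated more closely with Oxt or Avp than these did with each other. Among 13913 other genes whose log2 CPM averaged 0 or more, Avp ranked 245 by its r with Oxt, and Oxt ranked 279 by its r with Avp. The nearest IDs to Oxt were ENSRNOG00000031003 (r = 0.88, rho = 0.81) and ENSRNOG00000010664 (r = 0.88, rho = 0.83), over 16 libraries. The nearest to Avp were ENSRNOG00000027194 (r = 0.90, rho = 0.83) and ENSRNOG00000002227 (r = 0.88, rho = 0.86). These are the highest of many values and are given as a description. Their levels across groups did not follow those of the members. ENSRNOG00000031003 averaged 6.37 CPM in F3 EDC, 5.96 in F3 control, 6.78 in F1 EDC rats and 7.81 in F1 controls, without the higher F3 level of Oxt. ENSRNOG00000002227 averaged 31.2 CPM in F3 EDC, 34.0 in F3 control, 77.4 in F1 EDC rats and 35.3 in F1 controls, whereas Avp was lowest in F1 EDC.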

How the data were processed

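RNA was sequenced from 16 hypothalamus samples with single reads, per the labels' protocols. The authors deposited read counts per gene, unnormalized, in the layout of STAR (version not given in the sources used here). Trimmomatic 0.33, TopHat2 2.1 and the build rn6 are named per the submitters' processing notes. The fourth column was used, which held at least 52.5 times the gene counts of the other strand. The 4 summary lines were left out of totals and tests. They held 15.7% to 51.6% of a library's reads as multimapping, 17.7% to 24.4% outside genes and 3.63% to 9.45% as unmapped.

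edgeR 4.0.16 (R 4.3.3; TMM, filterByExpr with a count minimum of 10, robust quasi-likelihood F test) was fitted to 4 group means over all libraries, with Benjamini-Hochberg adjustment over 15366 genes. The procedure was also run on simulated data with far fewer changed genes than were called in F1, and no result here rests on that run. Log2 CPM had a prior count of 2, and permutation tests of relations used 100000 draws. Intervals of counts cover counting error only. The members and lists were chosen with earlier results of these data known. Named genes were the members and, for each, the 2 IDs with the highest group-centred correlation. The gene table at hand (47357 genes, GRCr8) matched 0 of 32883 IDs, so the planned lists of pathway genes and cell type markers were left out. Protein sequences were not used here. Tried beside this were DESeq2 1.42.0, voom with quality weights from limma 3.58.1, scaling by RLE or upper quartile, 2 other filters, each generation alone, unstranded counts, a replicate block, a multimapping covariate and leaving out each library. The F3 EDC against F1 control contrast and the ratio tests between generations were added after values were seen. The relations of Oxt to Avp by generation and without F1 EDC were not planned either.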

Additional observations from a re-analysis of the deposited data

Results flagged for a closer look

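Oxt in F3 control replicate 4, at 78.6 CPM, lay far above the other F3 control libraries, which reached 23.9 CPM at most. Its gap to the nearest library was 0.906 of the range of the group, above Dixon's 95% critical value for 4 samples. On log2 CPM the share was 0.814, under that value, so this result depends on the scale. Avp in F1 control replicate 1, at 12.6 CPM, lay far below the other F1 control libraries, which were at 33.1 CPM or more, with a gap of 0.841 of the range, also above that value, and of 0.897 on log2 CPM. Chance flags about 1 in 20 groups, and 12 groups of values were examined (Oxt, Avp and their log2 ratio in each group). The cause of either value was not tested.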

How the results depend on the processing

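Of 356 alternative values of the members and of their ratio, 339 kept their direction and 327 also their side of the threshold. Most belong to results that were never called, so their side says little. Kept direction says little where a setting could hardly move a value. Such settings were unstranded counts, the ratio with the replicate block, and leaving out a library outside the comparison. The only calls were those of Oxt between generations. In F3 control against F1 control the call was lost in 4 of 16 fits without single libraries and 2 of 10 other settings. In F3 EDC against F1 EDC it was lost in 5 of 16 and 1 of 10. All of these single-library losses came from leaving out 1 of the 8 libraries of the groups compared. The other 8 libraries do not enter the means compared, so 16 overstates the number of fits that could lose a call. The call of Oxt in F3 control against F1 control was lost with voom (log2 fold change 1.37) and without both F3 libraries numbered 4 (1.05, adjusted p = 0.0593). It ranged from 1.05 to 2.24 over fits without single libraries (adjusted p 0.0163 to 0.0822). In F3 EDC against F1 EDC it was lost with the multimapping covariate (0.68) and ranged from 1.30 to 1.88 over single libraries (adjusted p 0.00603 to 0.0889). Reversed signs all belonged to values that passed no threshold. The Oxt difference of effects was 0.37 with voom, 0.64 without both F3 libraries numbered 4 and -0.69 to 0.46 over single libraries. That of Avp was 0.072 without both libraries numbered 4. Avp in F3 EDC against F1 control was 0.078 with voom, 0.0046 with the replicate block, 0.19 without both libraries numbered 4 and -0.31 to 0.19 over single libraries. Avp in F3 EDC against F1 EDC was -0.26 with the multimapping covariate and -0.089 to 0.41 over single libraries. The ratio in F3 EDC against F3 control ran from -0.21 to 0.11 over single libraries. The count of genes called in F3 EDC against F3 control was 452, 775 with DESeq2, 1522 with voom and 34 to 553 over single libraries. The cause was not tested. Same-numbered libraries of a generation showed little common deviation over all genes (r -0.11 to 0.09). This cannot exclude a pairing that acts on some genes only, and pairing across generations was not examined. With the replicate block the log2 fold change of Oxt was -0.91 in F1 and -0.98 in F3, and no call of the members changed. The counts of 33 and 44 reads for Oxt in F1 EDC replicate 3 and F1 control replicate 4 limit those values most.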
